A study of Mus musculus with 12 samples.

Results

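The E proteins and their ID inhibitors form a small family of helix-loop-helix factors, and 5 of its genes were followed here through 4 states of mouse CD4+ T cells: the ID genes Id2 and Id3 and the E protein genes Tcf3, Tcf12 and Tcf4. They were taken by gene symbol from the deposited table of normalised expression, in which all 5 were present among 17203 genes. E proteins bind DNA as dimers at a short palindromic element, the E-box, through a basic region beside the helix-loop-helix. ID proteins keep the dimerisation domain but lack the basic region, so an E protein held by an ID protein no longer binds DNA. In T cells E proteins govern receptor gene rearrangement and lineage choice in the thymus, and in mature CD4+ cells the ID proteins hold back the follicular helper programme, with Id2 best known from effector cells and Id3 from naive, memory and follicular ones.

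The cells were primary CD4+ T cells of C57BL/6 mice, in 4 groups of 3 libraries. Unstimulated cells were used fresh, with no activation and no culture. The CD3 group was kept for 72 h on plate-bound anti-CD3, which triggers the T cell receptor, and the CD3_CD28 group for 72 h with plate-bound anti-CD3 and soluble anti-CD28, which engages a costimulatory receptor. In the CD3_CD28_ICOS group ICOS, a further receptor of the CD28 family, was engaged as well for the 72 h, and by its label every antibody was soluble, anti-CD3 included. A difference between it and CD3_CD28 can thus come from ICOS or from the loss of the plate-bound format, which cannot be told apart. Stimulation and time in culture cannot be told apart either in any comparison with the fresh cells. A transduction is mentioned in the series' design text and in none of the sample labels. Nothing in the labels tells whether replicate libraries stem from separate mice or cultures, so p-values reflect a spread between libraries that may be technical.

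Levels are in CPM, reads per 1e6 assigned reads. Depth, in units of 1e6 assigned reads, lay at 22.5 to 27.4 for unstimulated libraries, 11.4 to 26.5 for CD3, 22.3 to 25.5 for CD3_CD28 and 26.7 to 37.5 for CD3_CD28_ICOS, so that 1 read was worth 0.0267 to 0.0879 CPM. The lowest value of any of the 5 genes, Id3 in CD3_CD28 replicate 1, rested on about 162 reads. The T cell identity of the samples was checked with 10 genes of the T cell receptor complex and CD4 lineage, whose summed level was 3482 to 7514 CPM in every library. B cell markers were also present: 12 of them, Ms4a1 among them, summed to only 71.6 to 97.2 CPM in CD3_CD28 libraries, against 347 to 634 CPM in unstimulated, 790 to 1657 CPM in CD3 and 627 to 1778 CPM in CD3_CD28_ICOS libraries. Cd74 made up much of the sum, with means of 283 CPM in unstimulated, 540 in CD3, 72.1 in CD3_CD28 and 723 CPM in CD3_CD28_ICOS. Against unstimulated cells, 4 of the 12 were called higher and 1 lower in CD3 (43.6 and 26.3% of all genes). In CD3_CD28_ICOS 6 were called higher and 1 lower (35.6 and 23.7%). Cr2 went down, from a mean of 23.2 CPM in unstimulated to 3.22 in CD3 and 1.85 CPM in CD3_CD28_ICOS. A pair of libraries stood apart: 1 ribosomal RNA gene took 11.8% of the reads of CD3_CD28 replicate 1 and at most 3.203% elsewhere, and Fos, an early response gene, was at 1275 CPM in unstimulated replicate 3 and at most 70.7 CPM elsewhere. Without both, a choice made after seeing the data, the count of the 5 genes called changed by 1 in 1 comparison, CD3_CD28 against unstimulated (2 in place of 3). Within groups, log2 values correlated across genes at 0.968 to 0.993. In bulk samples such as these, fewer cells of a type and less RNA per cell cannot be told apart.

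The E-box is the sequence through which the family acts, and it also occurs near the starts of some of its own genes. Promoter windows of 300 bases, 250 of them before the start, were taken from RefSeq (GRCm38.p6), where 4 of the 5 genes matched. They were searched for CANNTG, which is its own reverse complement, so a match on either strand is the same match. The stretches below, each before a RefSeq start and outside GENCODE exons, show the element in its surroundings for an ID gene and for the pair of abundant E protein genes. Bases run 5′ to 3′ on the gene's strand, and capitals mark the E-box.

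Id2 (chr12:25096254-25096342, minus strand): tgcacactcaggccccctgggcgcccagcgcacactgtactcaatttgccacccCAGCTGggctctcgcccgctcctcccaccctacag
Tcf3 (chr10:80433648-80433885, minus strand): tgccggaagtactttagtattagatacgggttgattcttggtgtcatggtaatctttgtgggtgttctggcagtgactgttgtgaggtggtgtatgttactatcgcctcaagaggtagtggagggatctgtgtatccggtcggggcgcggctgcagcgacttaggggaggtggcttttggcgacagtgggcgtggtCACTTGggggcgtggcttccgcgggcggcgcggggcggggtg
Tcf12 (chr9:72111872-72112069, minus strand): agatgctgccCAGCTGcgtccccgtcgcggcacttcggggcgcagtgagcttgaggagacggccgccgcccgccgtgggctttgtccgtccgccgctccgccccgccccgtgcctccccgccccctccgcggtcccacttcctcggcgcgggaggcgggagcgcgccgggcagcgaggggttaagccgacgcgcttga

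The Tcf3 and Tcf12 stretches also precede the GENCODE gene, but the Id2 stretch lies inside it, in an intron of the longest transcript and before the starts of the others. The Id2 element lay 196 bases before the RefSeq start, the Tcf3 element 54 bases and the Tcf12 element 240 bases. The Id2 and Tcf12 stretches shown carried the form CAGCTG, a palindrome throughout, and that of Tcf3 carried CACTTG. The Id3 window held no match, which says only that these letters are absent from it. Tcf12 has 3 promoter windows, with 1, 2 and 1 matches: CAGCTG, then CAAGTG and CACTTG, then CATGTG. Such matches are common: 72.3% of 32851 promoters of the same length held CANNTG, 16.3% held CAGCTG, and 20.2% held CACCTG or CAGGTG.

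Id2 went down, up and down again over the series of stimulations. Id2, whose protein is linked to effector differentiation, lies on chromosome 12 (25093799 to 25097140 of GRCm38, minus strand, protein-coding). Its level was 56.0, 48.5 and 63.0 CPM in the unstimulated libraries and 18.9, 28.8 and 21.6 CPM in CD3. It was 83.3, 74.9 and 60.8 CPM in CD3_CD28 and 24.5, 27.7 and 23.8 CPM in CD3_CD28_ICOS. The CD3 and CD3_CD28_ICOS libraries all lay below all unstimulated and CD3_CD28 libraries, while unstimulated and CD3_CD28 overlapped, since the lowest CD3_CD28 value was under the highest unstimulated one. Against unstimulated cells Id2 fell by 1.25 ± 0.16 in CD3 (log2 fold change ± SE on the log2(CPM + 1) scale, limma adjusted p = 7.13e-06) and by 1.11 ± 0.16 in CD3_CD28_ICOS (limma adjusted p = 3.68e-05). CD3_CD28 exceeded CD3 by 1.63 ± 0.16 (limma adjusted p = 2.21e-06), and CD3_CD28_ICOS was below CD3_CD28 by the log2 difference of -1.48 ± 0.16 (limma adjusted p = 2.40e-06). The rise of 0.38 ± 0.16 in CD3_CD28 over unstimulated passed narrowly (limma adjusted p = 0.0410) and did not pass without unstimulated replicate 1 or 2 or CD3_CD28 replicate 1 or 2 (limma adjusted p = 0.0756 to 0.161), nor without both libraries that stood apart (limma adjusted p = 0.0939). The order of the mean levels was thus CD3_CD28, unstimulated, CD3_CD28_ICOS and CD3, and CD3_CD28_ICOS and CD3 did not differ beyond their spread (0.15 ± 0.16, limma adjusted p = 0.472). In all comparisons with fresh cells, of Id2 and of the other genes, the sum of 11 myeloid and conventional dendritic cell markers moved too. It was 128 to 300 CPM in unstimulated and 5.02 to 21.5 CPM in stimulated libraries. Of the 11, 0 were at 0 CPM in unstimulated libraries and 1 to 7 in stimulated ones. Csf1r and Lyz2 made up much of the unstimulated sum, with means of 82.7 and 57.98 CPM. Zbtb46 went the other way, with means of 0.897 CPM in unstimulated and 4.37 to 5.13 CPM in stimulated groups. Flt3 had a higher mean in CD3 (4.71 CPM) than in unstimulated (1.701 CPM), but lower means in the other stimulated groups. Only 4 of the 11 were tested for change, and all 4 were called lower in each stimulated group. Of all genes, 26.3% were called lower in CD3, 39.1% in CD3_CD28 and 23.7% in CD3_CD28_ICOS. The 4 reached 10 CPM in unstimulated libraries only, so the filter fixed this direction in advance and the calls add nothing to the levels. The part of the 11 markers in these comparisons was not tested.

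Id3 went the opposite way in CD3_CD28. Id3, which restrains E proteins in naive and follicular T cells, lies on chromosome 4 (136143497 to 136145755, plus strand, protein-coding). Unstimulated libraries held 24.3, 22.4 and 20.7 CPM and CD3 libraries 29.9, 27.9 and 32.7 CPM. CD3_CD28 libraries held 7.12, 11.9 and 7.22 CPM and CD3_CD28_ICOS libraries 31.5, 22.2 and 32.1 CPM. All 3 CD3_CD28 libraries lay below all 9 others, a placement that 22.9% of the 9826 genes tested shared. Id3 fell by 1.30 ± 0.18 against unstimulated (limma adjusted p = 1.62e-05) and by 1.71 ± 0.18 against CD3 (limma adjusted p = 4.57e-06), and it rose by 1.62 ± 0.18 from CD3_CD28 to CD3_CD28_ICOS (limma adjusted p = 4.16e-06). The CD3 libraries all lay above the unstimulated ones, but the difference of 0.41 ± 0.18 did not pass the threshold (limma adjusted p = 0.0567). It did pass without CD3_CD28 replicate 2 or CD3_CD28_ICOS replicate 2, which share in the estimate of spread (limma adjusted p = 0.0191 and 0.0321). CD3_CD28_ICOS overlapped with unstimulated cells because of its replicate 2 (0.32 ± 0.18, limma adjusted p = 0.143), and without that library the value was 0.48 (limma adjusted p = 0.0319). From the highest mean, the order was CD3, CD3_CD28_ICOS, unstimulated and CD3_CD28, and only CD3_CD28 differed from its neighbour past the threshold.

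**Figure D1:**
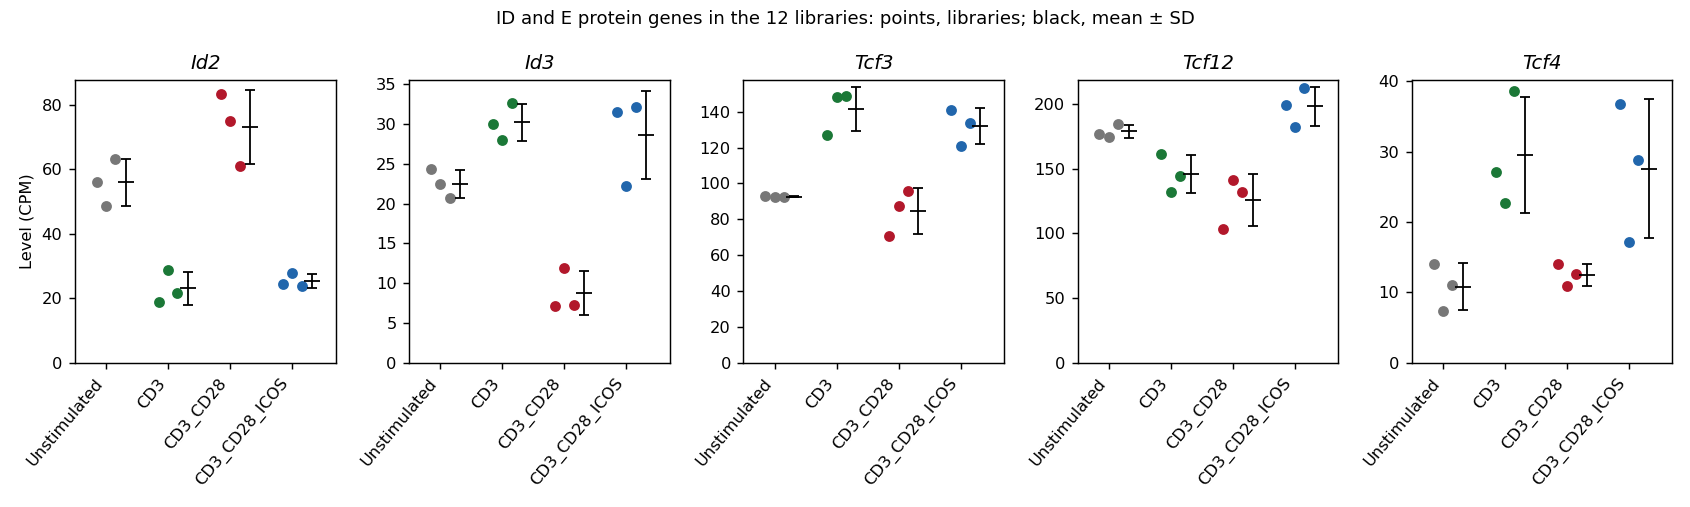
Levels of the ID genes Id2 and Id3 and the E protein genes Tcf3, Tcf12 and Tcf4 in CPM (vertical axes, from 0, 1 panel a gene) in the 4 groups; points are libraries and black bars the mean ± SD over 3 libraries. Id2 is high in unstimulated and CD3_CD28 libraries and low in the others, and Id3 is lowest in CD3_CD28, at 7.12 to 11.9 CPM.

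The balance between the ID genes therefore turned over. Within each library, the log2 ratio of Id2 to Id3 CPM was 1.31 ± 0.26 in unstimulated, -0.40 ± 0.39 in CD3, 3.09 ± 0.45 in CD3_CD28 and -0.16 ± 0.41 in CD3_CD28_ICOS (mean ± SD, n = 3). Its ranges over libraries were 1.11 to 1.60 in unstimulated, -0.67 to 0.046 for CD3, 2.65 to 3.55 for CD3_CD28 and -0.43 to 0.32 for CD3_CD28_ICOS, so that CD3 and CD3_CD28_ICOS overlapped and no other pair of groups did. Since the transcripts differ in length, such a ratio is read only between libraries and not as a ratio of molecules. Summed over both ID genes the shift partly cancelled: the sums were 78.3 ± 6.65, 53.3 ± 4.10, 81.8 ± 12.02 and 53.9 ± 3.48 CPM in the same order. Id1, a further ID gene, was too low to be tested, at 0.328 to 0.608 CPM in unstimulated, 0.0877 to 0.151 for CD3, 1.37 to 2.37 for CD3_CD28 and 0.0748 to 0.320 CPM for CD3_CD28_ICOS. Its values were highest in CD3_CD28, and Id4 was not analysed here.

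Tcf3 encodes E2A, the E protein with the widest role in lymphocytes, and lies on chromosome 10 (80409514 to 80433647, minus strand, protein-coding). Its levels were 93.03, 92.6 and 92.2 CPM in unstimulated libraries and 127, 148 and 149 CPM in CD3. They were 70.7, 87.2 and 95.9 CPM in CD3_CD28 and 141, 121 and 134 CPM in CD3_CD28_ICOS. The CD3 and CD3_CD28_ICOS libraries formed the upper set and did not overlap with the lower set of unstimulated and CD3_CD28 libraries. Tcf3 rose by 0.60 ± 0.11 in CD3 (limma adjusted p = 2.40e-04) and by 0.50 ± 0.11 in CD3_CD28_ICOS (limma adjusted p = 0.00136) over unstimulated, whereas the difference in CD3_CD28 was -0.14 ± 0.11 (limma adjusted p = 0.260). It fell by 0.74 ± 0.11 from CD3 to CD3_CD28 (limma adjusted p = 7.05e-05), and CD3_CD28_ICOS exceeded CD3_CD28 by 0.64 ± 0.11 (limma adjusted p = 1.83e-04). Neither CD3 and CD3_CD28_ICOS nor unstimulated and CD3_CD28, the neighbours in the order of means, differed beyond their spread. E12 and E47, the splice products of Tcf3, cannot be separated in gene-level values.

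Tcf12 encodes HEB, the partner of E2A in thymocytes, and lies on chromosome 9 (71842688 to 72111871, minus strand, protein-coding). Unstimulated libraries held 177, 175 and 185 CPM and CD3 libraries 161, 132 and 145 CPM. CD3_CD28 libraries held 103, 141 and 132 CPM and CD3_CD28_ICOS libraries 199, 182 and 213 CPM. The CD3 and CD3_CD28 libraries overlapped and lay below all of the others, and CD3_CD28_ICOS overlapped with unstimulated cells. Tcf12 fell by 0.52 ± 0.11 in CD3_CD28 against unstimulated (limma adjusted p = 9.46e-04). It exceeded both other stimulations in CD3_CD28_ICOS, by 0.66 ± 0.11 over CD3_CD28 (limma adjusted p = 2.01e-04) and by 0.44 ± 0.11 over CD3 (limma adjusted p = 0.00636). The fall of 0.30 ± 0.11 in CD3 passed (limma adjusted p = 0.0332) but did not without any 1 of the 3 unstimulated libraries or CD3 replicates 2 and 3 (limma adjusted p = 0.0563 to 0.136), and its value was -0.47 after scaling by the median of ratios. CD3_CD28 and CD3 differed by -0.22 ± 0.11 (limma adjusted p = 0.103), and without CD3_CD28 replicate 2 by -0.31 (limma adjusted p = 0.0382). In the order of means, CD3_CD28_ICOS and unstimulated did not differ beyond their spread, nor did CD3 and CD3_CD28. Of the genes that overlap Tcf12, 6 were listed, and none passed 1.2 CPM in any library. Whether the counting used strand is not given in the sources used here.

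Tcf4 encodes E2-2, the E protein that specifies plasmacytoid dendritic cells and is also made by B cells, and it was the lowest of the E protein genes, per kb as well. It lies on chromosome 18 (69343356 to 69689079, plus strand, protein-coding). It stood at 14.0, 7.32 and 11.1 CPM in unstimulated libraries and at 27.1, 22.7 and 38.7 CPM in CD3. It stood at 14.0, 10.9 and 12.6 CPM in CD3_CD28 and at 36.8, 17.2 and 28.8 CPM in CD3_CD28_ICOS. The CD3 and CD3_CD28_ICOS libraries lay above the others without overlap, and spread most within their own groups. Tcf4 rose by 1.38 ± 0.28 in CD3 (limma adjusted p = 6.89e-04) and by 1.25 ± 0.28 in CD3_CD28_ICOS (limma adjusted p = 0.00182) over unstimulated. It fell by 1.15 ± 0.28 from CD3 to CD3_CD28 (limma adjusted p = 0.00322), was higher by 1.02 ± 0.28 in CD3_CD28_ICOS than in CD3_CD28 (limma adjusted p = 0.00629), and differed by 0.23 ± 0.28 between CD3_CD28 and unstimulated (limma adjusted p = 0.464). In the order of means, CD3 and CD3_CD28_ICOS did not differ beyond their spread, nor did CD3_CD28 and unstimulated.

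The Tcf4 values moved with B cell markers from library to library. The CD3 library with most B cell marker transcripts, replicate 3 (1657 CPM against 790 and 847), was also the one with most Tcf4, and CD3_CD28_ICOS replicate 2, with 627 CPM of markers against 1778 and 1477, had the least Tcf4 of its group. Across the 12 libraries, which fall into 4 groups and share no other structure given in the labels, the correlation of log2 values with the summed markers was 0.71 for Tcf4 and 0.85 for its deviations from the group means. The same values were 0.96 and 0.62 for Id3, 0.84 and 0.52 for Tcf3, 0.68 and 0.37 for Tcf12, and -0.83 and -0.070 for Id2. All 12 B cell markers were lower in CD3_CD28 than in CD3 and than in unstimulated cells, with 1 marker at 0 in each CD3_CD28 library, and all 12 were higher in CD3_CD28_ICOS than in CD3_CD28. Their part in the changes of the 5 genes was not tested. Of 8 plasmacytoid dendritic cell markers 7 were listed, and they summed to 181 to 209 CPM in unstimulated and 393 to 629 CPM in stimulated libraries. Irf8, which activated T cells also express, made up 269 to 523 CPM of the latter, while Ccr9 was at 11.8 to 15.5 CPM in unstimulated and at most 1.49 CPM in stimulated libraries, Klk1 was at 0 in all stimulated libraries, and Siglech was not analysed here. Pacsin1 had means of 97.0 CPM in unstimulated, 66.3 in CD3, 39.9 in CD3_CD28 and 92.5 CPM in CD3_CD28_ICOS. Those of Bst2 were 31.3, 24.2, 36.2 and 16.0 CPM in the same order. Cox6a2 went up, with means of 0.0417, 0.155, 1.73 and 0.661 CPM. Ly6d had lower means after stimulation. The 8 markers of NK and innate lymphoid cells, which are rich in Id2, summed to 116 to 162 CPM in CD3 libraries and to 35.6 to 116 CPM elsewhere. Eomes, which activated T cells also express, made up 109 ± 25.5 CPM in CD3. The NK receptor genes Ncr1 and Klrb1c, at 2.56 ± 1.62 and 5.62 ± 1.98 CPM in unstimulated cells, were at most 0.0448 and 0.352 CPM in stimulated libraries. Klra8 and Klre1 also had lower means after stimulation. Klrk1 had means of 5.33 CPM in unstimulated, 20.4 in CD3, 0.699 in CD3_CD28 and 13.1 CPM in CD3_CD28_ICOS. Those of Kit were 7.73, 3.46, 41.2 and 14.3 CPM in the same order. The part of these markers was not tested.

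Without the 3 libraries richest in B cell markers, CD3 replicate 3 and CD3_CD28_ICOS replicates 1 and 3, a choice made after seeing the data, the CD3_CD28_ICOS group kept 1 library, which is assumed to vary like the others. Tcf4 then exceeded unstimulated cells by 1.17 in CD3 (limma adjusted p = 4.99e-04), but by 0.66 in CD3_CD28_ICOS (limma adjusted p = 0.0640), and the latter exceeded CD3_CD28 by 0.43 (limma adjusted p = 0.226). Tcf3 in CD3_CD28_ICOS was 0.38 above unstimulated (limma adjusted p = 0.0638), and Id3 there differed from unstimulated by -0.014 (limma adjusted p = 0.969). Id3 still fell by 1.65 from CD3 to CD3_CD28 (limma adjusted p = 2.26e-05) and Id2 still rose by 1.59 (limma adjusted p = 4.33e-05). Tcf12 in CD3_CD28_ICOS exceeded CD3 by 0.32 (limma adjusted p = 0.203), and its fall in CD3 was -0.29 (limma adjusted p = 0.0738).

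**Figure D2:**
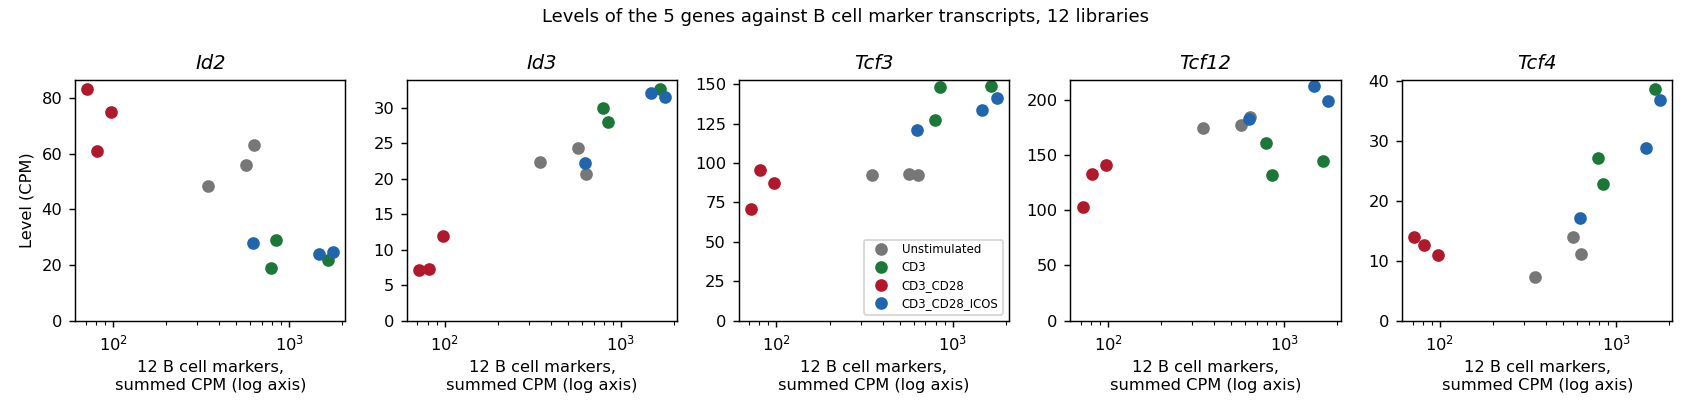
Level of each of the 5 genes in CPM (vertical axes, from 0) against the summed CPM of 12 B cell markers (horizontal axes, log scale) in the 12 libraries, coloured by group. CD3_CD28 libraries sit at 71.6 to 97.2 CPM of markers, and Tcf4 is highest where the markers are highest, in CD3 replicate 3 and CD3_CD28_ICOS replicate 1.

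Set against all genes, the calls of the 5 were as follows, with the share of the 9826 tested genes called in the same comparison. From unstimulated to CD3, 4 of 5 changed (background 69.8%), Tcf3 and Tcf4 being higher (43.6%) and Id2 and Tcf12 lower (26.3%), and the libraries did not overlap for 5 of 5 (76.9%). From unstimulated to CD3_CD28, 3 of 5 changed (background 75.2%), Id2 being higher (36.1%) and Id3 and Tcf12 lower (39.1%), and 2 of 5 did not overlap (76.7%). From unstimulated to CD3_CD28_ICOS, 3 of 5 changed (background 59.4%), Tcf3 and Tcf4 being higher (35.6%) and Id2 lower (23.7%), and the same 3 did not overlap (64.5%). In this last comparison only the fall of Id2 remained without the 3 libraries richest in B cell markers. These comparisons share their unstimulated libraries.

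Among the stimulations, CD3_CD28 differed from CD3 in 4 of 5 genes (background 64.4%), Id2 being higher (18.7%) and Id3, Tcf3 and Tcf4 lower (45.7%), and these 4 did not overlap (72.4%). CD3_CD28_ICOS differed from CD3_CD28 in 5 of 5 (background 63%), Id2 being lower (24.5%) and the other 4 higher (38.5%), and 5 of 5 did not overlap (64.8%). CD3_CD28_ICOS differed from CD3 in 1 of 5 (background 47.7%), which was Tcf12, higher (18.9%, with 28.7% lower) and without overlap (58.5%). The F test over the 3 stimulated groups called 5 of 5, where 80.7% of all genes were called. Counts this close to their background, over so few genes, set the family apart in no comparison. The sizes ranged more widely: from CD3 to CD3_CD28, 4.72% of tested genes changed by more than Id2 and 4.18% by more than Id3, against 26.2% for Tcf3. The pattern of Id2, lower in CD3, higher in CD3_CD28 and lower in CD3_CD28_ICOS, with every step called, was shared by 245 genes (2.49%). The reverse pattern, shown by Tcf3 and Tcf4, was found in 946 genes (9.63%), and Id3 had those signs with its first step not called.

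**Figure D3:**
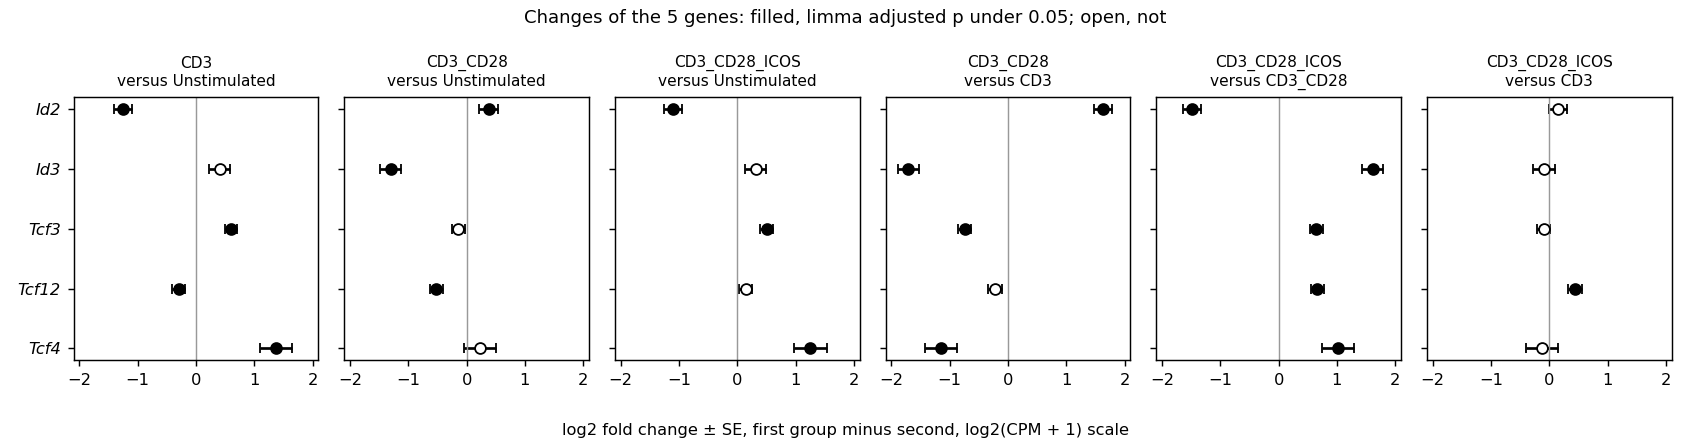
Log2 fold change ± SE of the 5 genes (rows) in the 6 comparisons (panels), first group minus second on the log2(CPM + 1) scale; filled points have a limma adjusted p under 0.05. Id2 and Id3 lie on opposite sides of 0 in all 6 panels, with both filled in the 3 that involve CD3_CD28, and in the last panel only Tcf12 is filled.

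In the authors' deposited table the directions were the same for every change called here, and 4 of these changes were past the threshold here and not there: Tcf12 in CD3 against unstimulated (false discovery rate 0.244), Id2 in CD3_CD28 against unstimulated (0.349), Tcf12 in CD3_CD28_ICOS against CD3 (0.104) and Tcf4 in CD3_CD28_ICOS against CD3_CD28 (0.0680). The authors' deposited table called fewer genes as a whole, 26.1% in CD3 against unstimulated and 17% in CD3_CD28 against CD3 among 17144 genes with a value.

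The balance of inhibitors to E proteins followed Id2 more than Id3. The log2 ratio of summed ID to summed E protein CPM was -1.85 ± 0.089 in unstimulated, -2.57 ± 0.14 in CD3, -1.45 ± 0.38 in CD3_CD28 and -2.73 ± 0.038 in CD3_CD28_ICOS (mean ± SD, n = 3). CD3_CD28 held the highest mean, with ratios from -1.82 to -1.06 that overlapped with unstimulated libraries, whereas CD3 and CD3_CD28_ICOS lay below both. As a difference of mean log2 values, in which each gene counts alike, unstimulated was highest instead (-0.67 ± 0.068 against -0.99 ± 0.29 in CD3_CD28). With Id3 as the only inhibitor the order turned: the values were -3.65 ± 0.13, -3.39 ± 0.046, -4.70 ± 0.37 and -3.66 ± 0.17, lowest in CD3_CD28. The E protein sum itself was 282 ± 6.97 CPM in unstimulated, 317 ± 14.8 in CD3, 223 ± 30.1 in CD3_CD28 and 358 ± 31.96 CPM in CD3_CD28_ICOS. The E protein genes also changed relative to each other, since the log2 ratio of Tcf12 to Tcf3 was 0.95 ± 0.047, 0.045 ± 0.26, 0.57 ± 0.12 and 0.59 ± 0.087. Unstimulated libraries, at 0.91 to 1.00, lay above all stimulated ones, and CD3 libraries, at -0.16 to 0.34, below all others. Transcript ratios do not measure dimers, and no protein was measured.

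**Figure D4:**
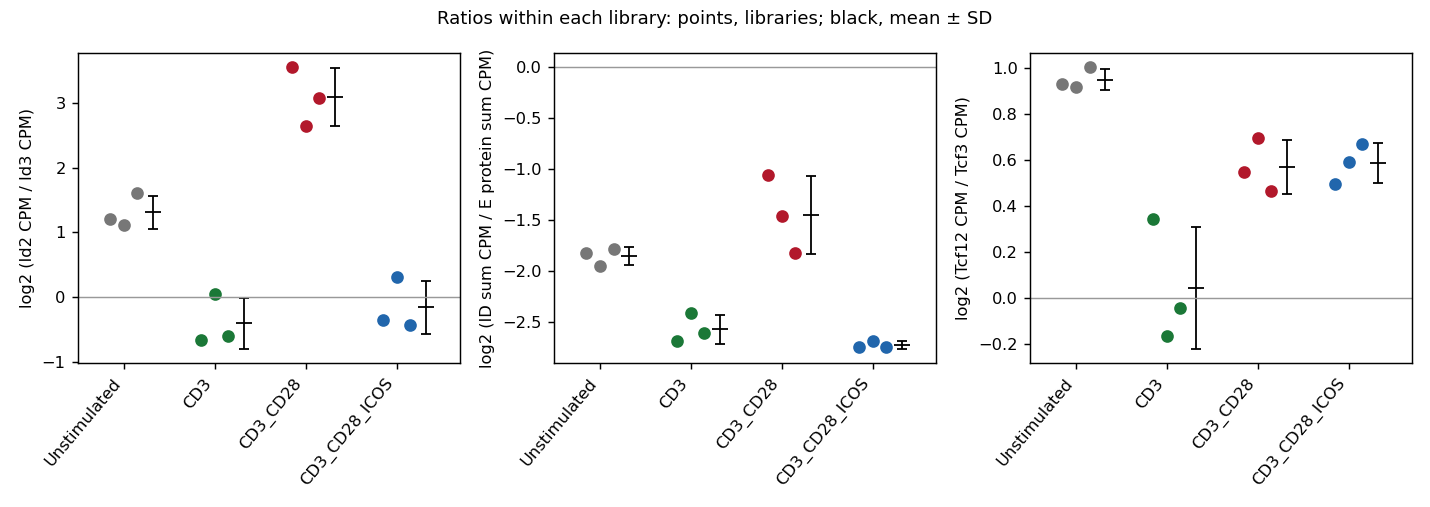
Log2 ratios of CPM within each library in the 4 groups: Id2 over Id3, summed ID over summed E protein genes, and Tcf12 over Tcf3; points are libraries and bars the mean ± SD over 3 libraries. Id2 over Id3 spans 2.65 to 3.55 in CD3_CD28 and -0.67 to 0.32 in CD3 and CD3_CD28_ICOS.

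Between genes, levels were compared per kb of exon. In unstimulated cells Id2 and Tcf3 stood at 22.9 ± 2.98 and 22.9 ± 0.0991 CPM per kb, Id3 at 12.5 ± 0.996, Tcf12 at 11.5 ± 0.339 and Tcf4 at 0.395 ± 0.123. In CD3_CD28 Id2 was the highest of the 5, at 29.9 ± 4.66 CPM per kb, and Id3 stood at 4.89 ± 1.54. In CD3 and CD3_CD28_ICOS Tcf3 led, at 34.997 ± 3.05 and 32.7 ± 2.50 CPM per kb, and Id3 (16.8 ± 1.33 and 16.0 ± 3.09) exceeded Id2 (9.48 ± 2.11 and 10.4 ± 0.854). Tcf4 was at or under 1.08 CPM per kb on average in every group. These figures rest on the length chosen, because Tcf4 and Tcf12 have many transcripts (62 and 21 annotated) whose exons add up to 27382 and 15529 bases. Per kb of the longest coding transcript Tcf12 came to 28.4 in unstimulated cells, level with Id2 at 28.4, while Tcf4 stayed lowest at 1.26.

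Among the 5, Id2 stood opposite to Id3 and Tcf3. Across the 12 libraries, log2 values of Id2 correlated with Id3 at -0.81, with Tcf3 at -0.93 and with Tcf4 at -0.82, and Tcf3 with Tcf4 at 0.83. Deviations from the group means gave -0.21, -0.25, -0.14 and 0.22, so these values describe differences between the groups, with 12 points in 4 groups. Id3 and Tcf12 moved together within groups as well (0.69, and 0.62 for the deviations). The genes most like each member over the 12 libraries, by Pearson correlation, were Spsb1 (0.956), Stard5, Rala, Pde4dip and Rara (0.944) for Id2. For Id3 they were Dgkz (0.978), Wdfy4, Zmat2, Slamf6 and Tnfrsf14 (0.972), among which Wdfy4 had a mean of 0.559 CPM in CD3_CD28 against 37.3 to 106 CPM in the other groups. For Tcf3 they were Map4k1 (0.986), Igsf3, Ift140, Fam111a and Ube2l3 (0.975). For Tcf4 they were Plcg2 (0.949), Pcnp, Pkig, Hmgn3 and Cyfip1 (0.939), and for Tcf12 Sh3bp5 (0.970), Cbl, Bcas3, Med13 and Thada (0.962).

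Genes that act upstream of the ID genes were described next, 15 of them, all tested. From CD3 to CD3_CD28, 9 rose and 3 fell, where 18.7% of all tested genes rose and 45.7% fell, with a median of 0.50 beside -0.24 for all genes. Bmpr1a is a receptor for bone morphogenetic proteins, which induce ID genes in many cell types. It went from 5.75 ± 1.66 to 36.8 ± 4.14 CPM, a rise of 2.51 ± 0.26, and was at 5.31 ± 2.61 CPM in CD3_CD28_ICOS. Bmpr1a reached 10 CPM in CD3_CD28 libraries only. A higher level there was thus a condition of its being tested and counted among the 9 that rose. Stat5a, which carries interleukin-2 signals, rose by 1.19 ± 0.10 between the same groups and fell by 1.35 ± 0.10 from CD3_CD28 to CD3_CD28_ICOS, as Id2 did in both steps. From unstimulated to CD3, where Id2 fell, Bmpr1a rose by 1.29 ± 0.26 and Stat5a by 1.17 ± 0.10. Egr2, of the EGR factors that induce Id3 downstream of the T cell receptor, was at 15.3 ± 1.66 CPM in unstimulated, 81.7 ± 25.7 in CD3, 24.8 ± 2.39 in CD3_CD28 and 46.0 ± 18.1 CPM in CD3_CD28_ICOS. It fell by 1.64 ± 0.27 from CD3 to CD3_CD28 (limma adjusted p = 2.89e-04), as Id3 did, but unlike Id3 it stayed above unstimulated in CD3_CD28, by 0.67 ± 0.27. Egr3 fell too from CD3 to CD3_CD28, by 0.73 ± 0.14, and Egr1 was not called (-0.23 ± 0.38). From CD3_CD28 to CD3_CD28_ICOS, where Id3 rose, Egr2 rose by 0.78 ± 0.27 and Egr3 differed by -0.0050 ± 0.14. From unstimulated to CD3, 5 of the 15 rose, 3 under quantile normalization, and 7 fell (43.6 and 26.3% of all genes, median -0.11 beside 0.18 for all genes), among them the TGF-beta receptor gene Tgfbr2 (-2.16 ± 0.13) and the inhibitory Smad7 (-3.74 ± 0.21). From CD3_CD28 to CD3_CD28_ICOS, 4 rose and 5 fell (2 rose after scaling by the median of ratios or without CD3_CD28 replicate 1 or CD3_CD28_ICOS replicate 3; 2 fell without CD3_CD28 replicate 2, and 3 fell without CD3_CD28_ICOS replicate 1 or 3 or without the 3 libraries richest in B cell markers), with a median of -0.0050 beside 0.13 and shares of 38.5 and 24.5% of all genes.

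Cofactors of E protein complexes were mostly lower after stimulation with CD3 or CD3_CD28. Of the 9 chosen, 6 were tested, and in each of these comparisons with unstimulated cells 5 fell and 1 rose, with medians of -0.61 and -0.77 beside 0.18 and -0.039 for all genes. Of all genes 26.3 and 39.1% fell and 43.6 and 36.1% rose in these comparisons. The 1 that rose in CD3 no longer passed under either other scaling, nor did the 1 in CD3_CD28 under quantile normalization. In CD3_CD28_ICOS against unstimulated 1 rose and 1 fell (0 and 3 under either other scaling; 35.6 and 23.7% of all genes), and against CD3_CD28 4 rose and 0 fell (38.5 and 24.5% of all genes). Crebbp, the acetyltransferase CBP, was at 313 ± 17.8 CPM in unstimulated, 133 ± 8.73 in CD3, 109 ± 15.03 in CD3_CD28 and 215 ± 13.1 CPM in CD3_CD28_ICOS. Kat2b, the acetyltransferase PCAF, rose by 1.18 ± 0.12 from CD3_CD28 to CD3_CD28_ICOS, and Lmo4, a LIM-domain bridging factor, by 1.49 ± 0.15. Tcf12 moved in the same directions as these 3 in CD3_CD28 against unstimulated and in CD3_CD28_ICOS against CD3_CD28. Of 8 lineage-restricted partners of E proteins only Lyl1 was tested. It reached 10 CPM in stimulated libraries only, so the filter favoured a rise. Lyl1 rose in CD3, CD3_CD28 and CD3_CD28_ICOS by 1.14 ± 0.26, 1.63 ± 0.26 and 1.47 ± 0.26 from a low 2.95 ± 0.822 CPM. Under quantile normalization the rise passed in CD3_CD28 only.

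Genes that set the stability or activity of the proteins were tested in 8 of 8 cases. From unstimulated to CD3, 5 rose and 2 fell (3 and 2 under either other scaling, and 2 or 3 rising without any 1 library of these groups; 43.6 and 26.3% of all genes; median 0.25 beside 0.18), and from CD3 to CD3_CD28, 7 fell and 0 rose (45.7 and 18.7% of all genes, median -0.87 beside -0.24). Usp1, a deubiquitinase that stabilises ID proteins, rose by 1.04 ± 0.11 from unstimulated to CD3 (85.5 ± 3.09 to 177 ± 8.59 CPM) and fell by 0.81 ± 0.11 from there to CD3_CD28, opposite to Id2 in both steps. Skp2, a ubiquitin ligase subunit that takes part in E2A turnover, rose by 1.85 ± 0.25 and fell by 1.03 ± 0.25. Its means were 2.56 CPM in unstimulated, 11.2 in CD3, 5.03 in CD3_CD28 and 6.98 CPM in CD3_CD28_ICOS. Skp2 reached 10 CPM in CD3 libraries only, so a higher level there was a condition of its being tested.

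Of 15 genes known as E protein targets in T lineage cells, 11 were tested. From unstimulated to CD3, 5 rose and 5 fell (43.6 and 26.3% of all genes), with 3 and 5 under either other scaling and 3 rising without unstimulated replicate 2 or CD3 replicate 3. From CD3 to CD3_CD28, 6 rose and 2 fell (18.7 and 45.7% of all genes, median 0.90 beside -0.24), and from CD3_CD28 to CD3_CD28_ICOS 3 rose and 6 fell (38.5 and 24.5% of all genes, median -0.78 beside 0.13), but 2 fell without the 3 libraries richest in B cell markers. Cdkn1a, the p21 cell cycle inhibitor gene that E2A activates, stood at 0.486 ± 0.182 CPM in unstimulated, 18.1 ± 4.27 in CD3, 264 ± 13.7 in CD3_CD28 and 8.34 ± 3.23 CPM in CD3_CD28_ICOS. It was highest in the group where the mean of Id2 was highest and that of Tcf3 lowest. Unstimulated libraries, which overlapped with CD3_CD28 in both Id2 and Tcf3, had the lowest mean of Cdkn1a. A link between these genes was not tested. Cdk6, a cell cycle kinase gene, was also highest in CD3_CD28, at 465 ± 85.0 CPM against 29.7 ± 4.18 in unstimulated, 212 ± 22.8 in CD3 and 62.9 ± 13.5 CPM in CD3_CD28_ICOS. Bcl6, the master factor of follicular helper cells and a gene also expressed by germinal centre B cells, was at 31.3 ± 5.09 CPM in unstimulated, 44.5 ± 18.5 in CD3, 5.53 ± 0.914 in CD3_CD28 and 104 ± 14.9 CPM in CD3_CD28_ICOS. It fell by 2.73 ± 0.24 from CD3 to CD3_CD28 (limma adjusted p = 2.07e-06) and rose by 4.01 ± 0.24 to CD3_CD28_ICOS (limma adjusted p = 4.99e-08), in the directions of Id3, Tcf3 and Tcf4, and of the B cell markers, whose part in it was not tested. Il7r, the interleukin-7 receptor gene, fell by 3.37 ± 0.25 from unstimulated to CD3.

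Other factors bind E-boxes too, though not all of them the forms shown above. Of 10 such genes, 8 were tested. From CD3 to CD3_CD28 1 rose and 3 fell (3 rising under either other scaling; 18.7 and 45.7% of all genes; median -0.045 beside -0.24), and from CD3_CD28 to CD3_CD28_ICOS 3 rose and 3 fell (38.5 and 24.5% of all genes, median 0.21 beside 0.13). Bhlhe40, a repressor that binds the E-box CACGTG, had the widest range, with means of 7.16 ± 4.74 CPM in unstimulated, 197 ± 40.6 in CD3, 1052 ± 140.1 in CD3_CD28 and 196 ± 75.5 CPM in CD3_CD28_ICOS. Like Id2 it was highest in CD3_CD28, but unlike Id2 it rose from unstimulated to CD3, by 4.75 ± 0.40. Zeb2, a zinc finger repressor, fell by 1.35 ± 0.26 and Tfap4 by 1.30 ± 0.21 from CD3_CD28 to CD3_CD28_ICOS, while Tfeb rose by 1.08 ± 0.13.

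**Figure D5:**
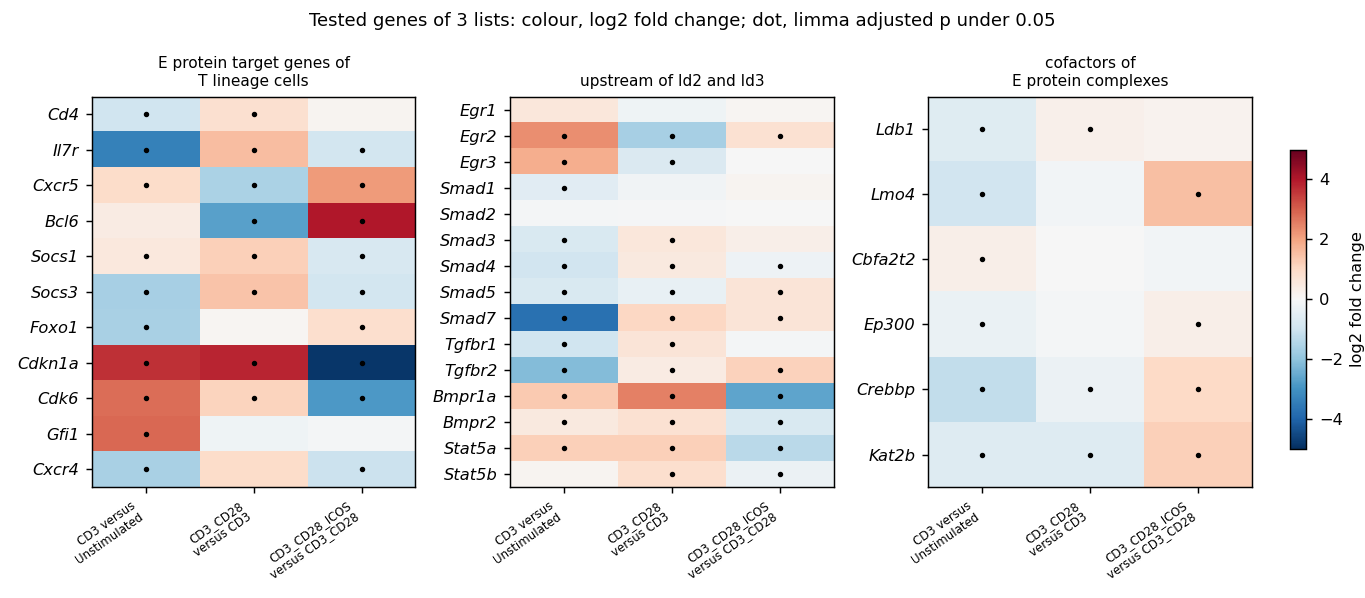
Log2 fold changes (colour scale, blue lower and red higher) of the tested genes of 3 lists in 3 comparisons; a dot marks a limma adjusted p under 0.05. Of the targets Cdkn1a and Bcl6 change in opposite directions in the last 2 columns, and 9 of the 15 upstream genes are red with a dot in CD3_CD28 versus CD3.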

How the data were processed

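RNA sequencing values of 12 libraries were used, 3 in each of 4 groups, with groups and replicate numbers taken from sample titles and treatments. Per the submitters' processing notes, the authors worked in Partek (version 10) with DESeq2 on build mm10, and the aligner, counter and annotation were not stated. The authors deposited CPM values, each column summing to 1e6 after an offset of 1e-04, and 0 columns were left unused. Only 75.7 to 80.2% of values up to 1.2 CPM were whole multiples, within 0.02, of the value of 1 read, so reads were not recovered and no count test was run. A further deposited table holds the authors' own p-values, false discovery rates and log2 ratios, per the file headers.

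The 9826 genes that reached 10 CPM in 3 or more libraries were tested, on log2(CPM + 1), with limma 3.58.1 in R 4.3.3 (trend and robust estimation, 1 mean per group over all 12 libraries, two-sided). P-values were adjusted by Benjamini-Hochberg over all tested genes in each of 6 comparisons, with a threshold of 0.05. Changes of genes with low values are understated on this scale. CPM has no length correction; levels per kb used GENCODE M21 exons (GRCm38), whose coordinates matched 99.11% of 16775 genes shared with the deposited table. Motifs were searched in RefSeq promoters. The script was tested on simulated data. The 5 genes and all gene lists were chosen with earlier results of these data known. Of each list, up to 3 called genes with the largest change in each direction were named, and for each of the 5 genes the 5 genes with the closest pattern. Alternatives covered scaling, filter, pseudocount, variance model, libraries and a replicate block.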

Additional observations from a re-analysis of the deposited data

How the results depend on the processing

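The 5 genes were refitted under 24 alternatives. Id2 in CD3 and CD3_CD28_ICOS against unstimulated, Id2, Id3, Tcf3 and Tcf4 in CD3_CD28 against CD3, Id2, Id3, Tcf3 and Tcf12 in CD3_CD28_ICOS against CD3_CD28, Id3 and Tcf12 in CD3_CD28 and Tcf3 and Tcf4 in CD3 against unstimulated were called in all of them. Id2 in CD3_CD28 against unstimulated was lost in 9 (limma adjusted p = 0.0153 to 0.161 over all 24), Tcf12 in CD3 in 6 (limma adjusted p = 7.78e-04 to 0.136), and Id3 in CD3 was called in 5 (limma adjusted p = 0.00574 to 0.476).

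Without CD3 replicate 3 and CD3_CD28_ICOS replicates 1 and 3, chosen after seeing the data, 1 of the 5 genes was called in CD3_CD28_ICOS against unstimulated, and against CD3 0 of them and 2916 genes in all, in place of 4683. This fit has fewer samples. Values that were not called changed sign: Id3 in CD3_CD28_ICOS to -0.014 against unstimulated there, and against CD3 to 0.024 under quantile normalization and 0.075 without CD3_CD28_ICOS replicate 2 (-0.18 to 0.075 over libraries left out). Tcf4 in CD3_CD28_ICOS against CD3 became 0.083 without CD3 replicate 3 and 0.17 without CD3_CD28_ICOS replicate 2 (-0.36 to 0.17), and in CD3_CD28 against unstimulated -0.0011 without unstimulated replicate 2 (-0.0011 to 0.43). With no filter 11496 genes were called in CD3_CD28 against unstimulated, where 7391 were with it, since more genes were tested.

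Leaving out 1 library at a time, the genes called of the 5 numbered 3 to 5 (CD3 against unstimulated), 2 to 3 (CD3_CD28 against unstimulated), 3 to 4 (CD3_CD28_ICOS against unstimulated), 4 to 5 (CD3_CD28 against CD3), 5 to 5 (CD3_CD28_ICOS against CD3_CD28) and 1 to 1 (CD3_CD28_ICOS against CD3). Quantile or median-of-ratios scaling shifted the median of all genes by -0.25 and -0.17 in CD3 and by -0.16 and -0.10 in CD3_CD28_ICOS against unstimulated, by 0.21 and 0.21 in CD3_CD28 against CD3, and by -0.12 and -0.14 in CD3_CD28_ICOS against CD3_CD28, and the share of higher among called genes went from 62.4 to 45.3 and 50.6% in the first of these, from 60 to 44 and 49.2%, from 29 to 48.1 and 48.4% and from 61.2 to 50.9 and 48.6% in the others. In CD3_CD28_ICOS against CD3 the share went from 39.7 to 50.5 and 48.4%. No called change of the 5 turned its direction.

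The replicate block, with the number as a covariate, called 4, 2, 3, 4, 5 and 1 of the 5 in the same order of comparisons, losing Id2 in CD3_CD28 against unstimulated (limma adjusted p = 0.0512). Deviations of same-numbered libraries correlated at -0.10 to 0.41, over 0.1 in 6 of 18 pairs, against 3 of 36 pairs with different numbers, and 7 of 12 libraries correlated best with their own number. Since not every pair passed 0.1, the numbers were left out of the main tests, but this does not exclude a pairing. With the block the SE of Tcf4 was 0.17 in place of 0.28, and that of Id3 was 0.20 in place of 0.18.

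The balance of ID to E protein transcripts moved with its definition. As a difference of mean log2 values it was -0.67, -1.65, -0.99 and -1.69 in unstimulated, CD3, CD3_CD28 and CD3_CD28_ICOS. With Id3 alone it was -3.65, -3.39, -4.70 and -3.66, with Id2 alone -2.34, -3.80, -1.61 and -3.82, and as Id2 over Id3 1.31, -0.40, 3.09 and -0.16. Without Tcf4 it was -2.61 in CD3_CD28_ICOS. Of 2016 list counts, 1885 stayed within 1.5 times their value. Groups of 3 were not tested for outlying libraries, and p-values rest on 3 libraries a group.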
